A study of Homo sapiens with 6 samples.

Results

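The genes described here are 37 members of the NRF2 response, the glutathione system and the pentose phosphate pathway, chosen by gene symbol from the 27980 symbols of the count tables. The cells were RKO, a human colon carcinoma line of poor differentiation, and total RNA was sequenced. In 3 libraries the cells stably expressed a TRIP6-specific shRNA delivered by lentivirus (shTRIP6, genotype given as TRIP6 knockdown), and in 3 libraries a scrambled shRNA delivered likewise (shControl, genotype given as WT). Cells of both groups were selected with 5 μg/ml puromycin for 2 to 3 weeks, starting 36 h after infection. The libraries of a group are labelled as biological replicates, but the labels name no separate cultures or clones, so p-values measure the spread between these libraries, which may be technical.

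NRF2, encoded by NFE2L2, is the transcription factor that switches on detoxifying and antioxidant genes. In unstressed cells its inhibitor KEAP1 holds it for ubiquitination and degradation, so NRF2 is controlled mostly as a protein and its mRNA need not follow its activity. Freed NRF2 pairs with a small MAF protein at antioxidant response elements and drives genes for quinone reduction, glutathione synthesis, thioredoxin recycling, iron storage and NADPH supply. In colon carcinoma cells, as in other tumour cells, these genes set how well reactive oxygen species, quinones and electrophilic drugs are handled.

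Depth was similar, with 31096598 to 32089298 counts per shTRIP6 library against 29605764 to 30949334 per shControl library. Levels are given as CPM, counts per 1000000 on library sizes scaled by TMM, and 1 count equalled 0.0314 to 0.0336 CPM. TRIP6 itself stood at 19.5 ± 0.203 CPM in shTRIP6 cells against 80.3 ± 6.27 CPM in shControl cells (SD, n = 3 each; log2 fold change -2.04 ± 0.07 SE, edgeR adjusted p = 1.25e-14). The keratin genes KRT8 and KRT18 were abundant in both groups, whereas the colon markers EPCAM, KRT20 and VIL1 had no count in any library. The summed level of 8 fibroblast markers, each with counts in at least 1 library, was 17.1 to 18.8 CPM in shTRIP6 and 32.1 to 35.7 CPM in shControl. The list was split: FAP (0.256 to 0.408 CPM in shTRIP6 and 13.6 to 16.2 CPM in shControl), COL1A1, COL3A1, DCN and POSTN were called lower, the last pair with 0 counts in shTRIP6. PDGFRB, most of the shTRIP6 sum, was called higher (13.9 CPM in shTRIP6 and 6.89 CPM in shControl), and LUM and COL1A2 were not called. The summed level of 4 endothelial markers was 0.224 to 0.282 CPM in shTRIP6 and 1.78 to 2.29 CPM in shControl, and that of 5 leukocyte markers, nearly all of it CD68, was 234 to 243 CPM in shTRIP6 and 186 to 235 CPM in shControl. The part of these markers in the differences below was not tested, and in bulk RNA fewer cells of a type and less RNA per cell cannot be told apart.

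One member was nearly lost from the shTRIP6 cells and the others differed by degrees or did not pass the test. The quinone reductase gene NQO1 stood at 0.850% of its shControl level in shTRIP6. Of the 36 members with enough counts to be tested, 13 were called higher and 16 lower in shTRIP6, and 7 were not called (edgeR's quasi-likelihood test, Benjamini-Hochberg adjusted p under 0.05 over all 15473 tested genes). GPX2 was not tested. Over all tested genes, 29.0% were called higher, 31.2% lower and 60.1% in either direction. The members were more abundant than most genes, with a median level of 113 CPM against 23.3 CPM over all tested genes. Among genes at a mean of 10 CPM or more, 28 of 34 members were called, against 66.2% of all such genes.

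The median log2 fold change was -0.02 over the tested members and -0.00 over all tested genes. Changes of 2-fold or more were seen in 2 members called higher and in 6 called lower, where 4.38% and 10.5% of all tested genes were of those kinds. The 3 libraries of each group did not overlap in 30 of the 36 tested members, against 65.3% of all tested genes. The line for near absence was drawn at 5% or less of the shControl mean, with 1 CPM or more in shControl, which 3.16% of tested genes at that level met. NQO1 was inside it, and the nearest member outside it was FTH1 at 24.7% of its shControl level. In the other direction, no member stood at 5% or less of its shTRIP6 level in shControl, which 0.0447% of tested genes did.

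**Figure D1:**
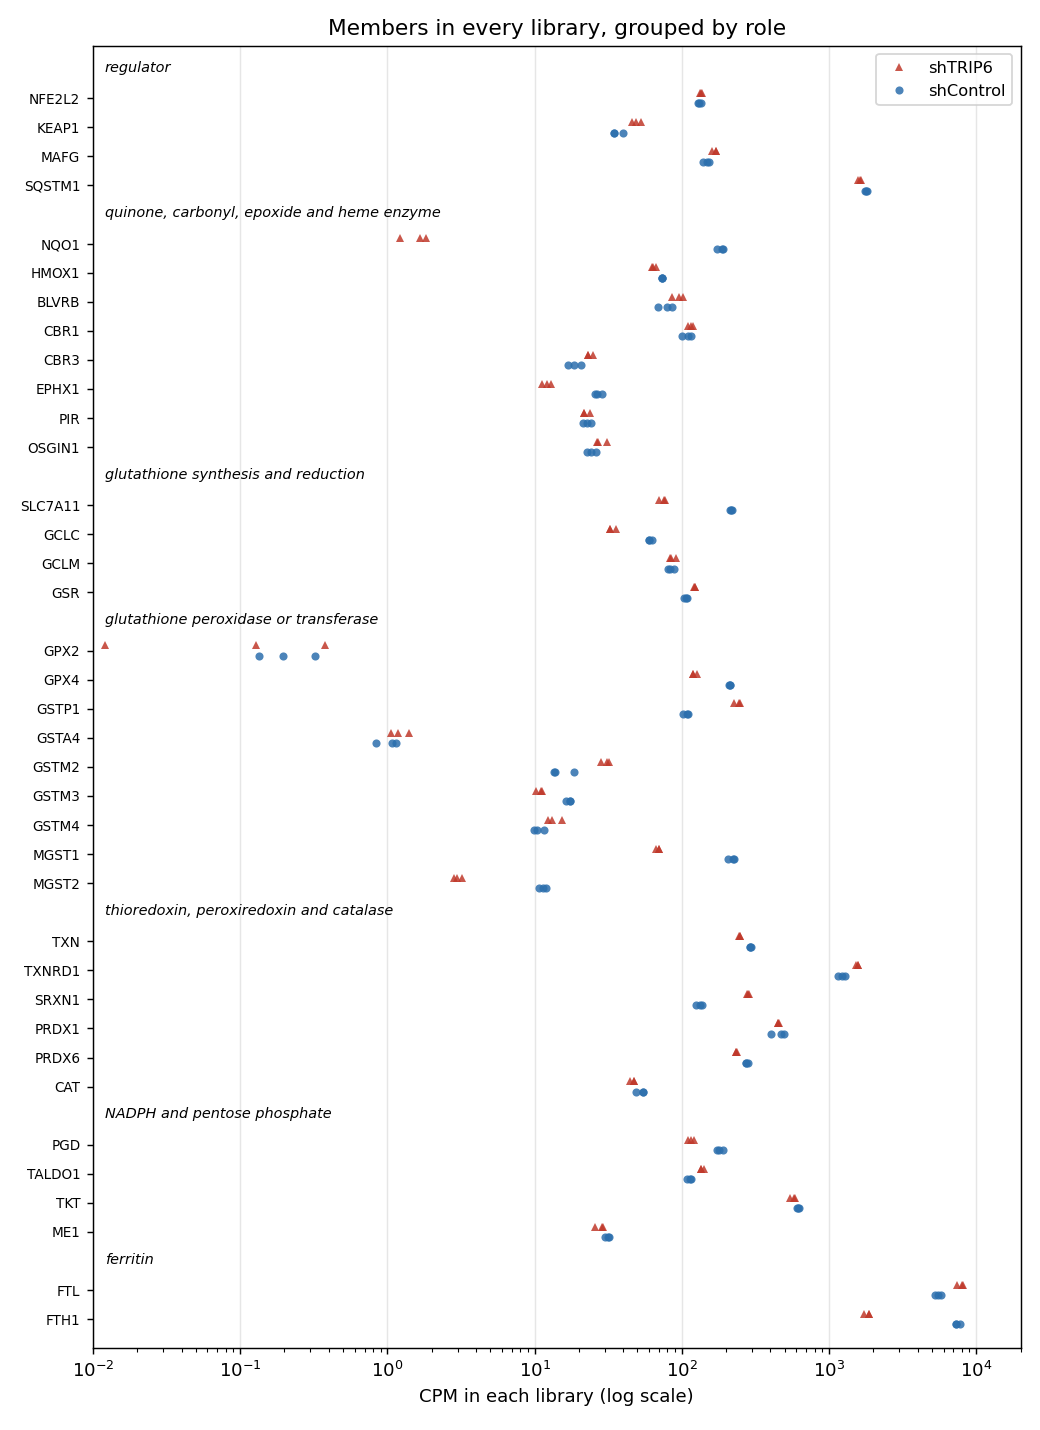
CPM of the 37 members in every library on a log scale, in groups by role, with shTRIP6 libraries as triangles and shControl libraries as circles. A point at the left edge is a library with 0 counts (GPX2 in shTRIP6), and levels are to be compared within a gene, since CPM is not corrected for length. The 3 NQO1 points of shTRIP6 lie at 1.22 to 1.82 CPM, far left of the shControl points at 173 to 191 CPM.

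**Figure D2:**
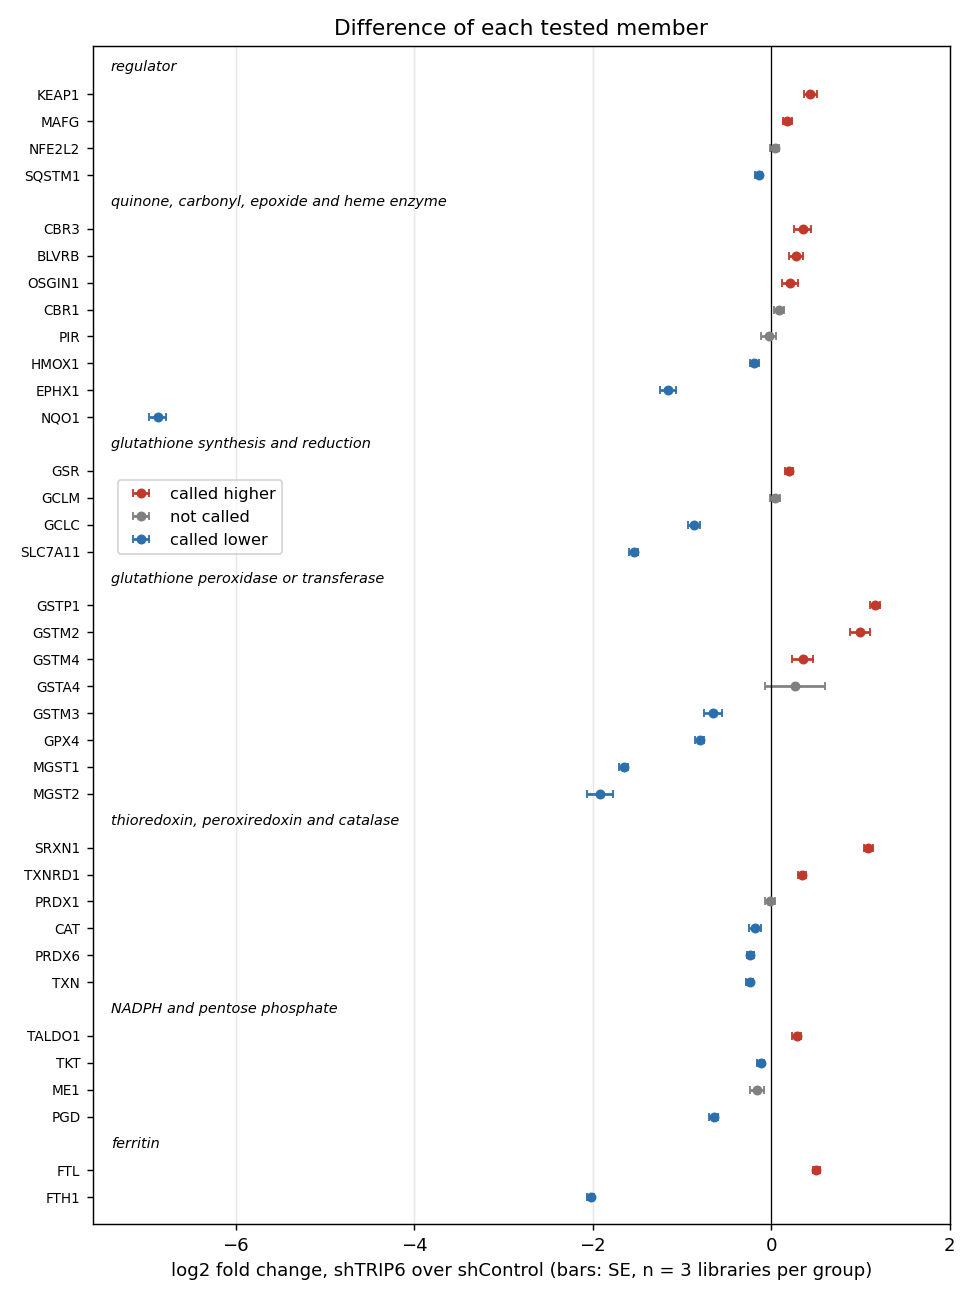
Log2 fold change of shTRIP6 over shControl for the 36 tested members, ordered within each role, with bars of 1 SE (n = 3 libraries per group) and colour by call. Apart from NQO1 at -6.87, the members lie between -2.02 (FTH1) and 1.16 (GSTP1).

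Promoter windows from RefSeq (GRCh38.p14) were searched for 29 of the 37 members. SLC7A11, GSR, MGST2, PRDX6, PRDX1, CBR3, FTH1 and HMOX1 had no window in the search, which does not show that RefSeq lacks one. The members and the tested genes with a window need not have been selected alike, and the difference of their shares below was not tested. The core of the antioxidant response element, TGACNNNGC, was searched on both strands (its reverse reads GCNNNGTCA) in the 250 bases before each annotated start. At least 1 window held it in 10 of 29 members, or 34.5%, against 15.6% of tested genes with a window, and in 27.5% of the members' windows against 10.9% of all windows. Of these 10 members, 3 were called higher (KEAP1, GSTP1, TXNRD1), 2 lower (EPHX1, PGD) and 4 were not called (CBR1, GCLM, GSTA4, ME1), with GPX2 not tested. Of the 19 members without the motif in a window, 8 were called higher, 9 lower and 2 were not called. Over all tested genes, 29.0% were called higher and 31.2% lower. The calls of members with and without the motif were not compared by a test. A match is only a description of the letters, and elements further upstream are not covered. The 5 windows shown are those of the nearly absent NQO1, of 2 genes called higher, of 1 called lower and of 1 not called, written 5′ to 3′ on the gene's strand with motif matches in capitals.
NQO1 (chr16:69726561-69726810, minus strand): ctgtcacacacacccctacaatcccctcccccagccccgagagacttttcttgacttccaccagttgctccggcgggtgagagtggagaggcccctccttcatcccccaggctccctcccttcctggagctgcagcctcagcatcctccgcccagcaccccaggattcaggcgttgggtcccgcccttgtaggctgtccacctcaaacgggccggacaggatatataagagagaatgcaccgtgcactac
GSTP1 (chr11:67583562-67583811, plus strand): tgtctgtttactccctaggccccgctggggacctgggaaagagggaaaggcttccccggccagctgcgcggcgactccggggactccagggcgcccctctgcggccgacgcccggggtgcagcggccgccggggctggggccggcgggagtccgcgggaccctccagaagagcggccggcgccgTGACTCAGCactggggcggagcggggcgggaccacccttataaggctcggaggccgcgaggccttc
TXNRD1 (chr12:104215529-104215778, plus strand): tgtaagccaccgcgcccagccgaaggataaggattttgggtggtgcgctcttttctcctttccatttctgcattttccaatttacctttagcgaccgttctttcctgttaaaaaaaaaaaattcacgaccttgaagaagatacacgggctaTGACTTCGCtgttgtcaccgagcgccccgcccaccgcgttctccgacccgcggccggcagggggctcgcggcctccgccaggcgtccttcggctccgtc
PGD (chr1:10398814-10399063, plus strand): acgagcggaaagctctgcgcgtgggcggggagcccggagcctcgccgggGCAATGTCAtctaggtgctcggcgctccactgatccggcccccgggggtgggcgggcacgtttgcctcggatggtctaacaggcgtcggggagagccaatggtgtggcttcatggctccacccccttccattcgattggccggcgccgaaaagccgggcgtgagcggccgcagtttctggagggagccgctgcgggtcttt
GCLM (chr1:93909431-93909680, minus strand): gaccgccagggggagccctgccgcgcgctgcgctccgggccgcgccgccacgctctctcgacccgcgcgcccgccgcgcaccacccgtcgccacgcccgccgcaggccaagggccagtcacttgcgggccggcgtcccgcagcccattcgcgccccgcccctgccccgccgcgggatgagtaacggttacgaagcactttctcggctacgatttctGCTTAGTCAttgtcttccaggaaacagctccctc
The motif began 66 bases before the annotated start in GSTP1, 99 bases in TXNRD1, 201 bases in PGD and 34 bases in GCLM. The RefSeq starts are not always the outer ends of the GENCODE genes given below: the windows of NQO1 and PGD lie inside the GENCODE gene, those of GSTP1 and GCLM overlap its start, and that of TXNRD1 ends just before it. NQO1 had no match in its window, which held 9 CpG dinucleotides, against a median of 11 over all 35116 windows. Their observed over expected ratio was 0.407, where the median was 0.764 over the members' 40 windows and 0.558 over all windows. Windows of other members had lower ratios, among them those of OSGIN1 (0.365, called higher) and GSTM3 (0.102, called lower).

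Of the 4 regulators of the pathway, KEAP1 and MAFG were called higher, SQSTM1 lower, and NFE2L2 was not called. That is 75% called, against 60.1% of all tested genes, and none differed by 2-fold or more. NFE2L2, the NRF2 gene, had 135, 132 and 136 CPM in shTRIP6 cells, against 135, 128 and 130 CPM in shControl cells. The groups overlapped, and the log2 fold change was 0.04 ± 0.05 (95% interval -0.06 to 0.14, edgeR adjusted p = 0.502). KEAP1, the adaptor that delivers NRF2 to its ubiquitin ligase, had 49.2, 53.1 and 46.1 CPM in shTRIP6 cells against 34.7, 34.6 and 40.1 CPM in shControl cells. All shTRIP6 libraries were above all shControl libraries, and KEAP1 rose by 0.44 ± 0.08 on the log2 scale (edgeR adjusted p = 6.26e-05). MAFG, a small MAF partner of NRF2, rose by 0.18 ± 0.05 (log2 fold change, edgeR adjusted p = 0.00490), from libraries of 160, 172 and 170 CPM in shTRIP6 cells against 140, 148 and 154 CPM in shControl cells. SQSTM1, the autophagy receptor p62 that can draw KEAP1 away from NRF2, fell by 0.14 ± 0.04 (log2 fold change, edgeR adjusted p = 0.00324). SQSTM1 was an abundant transcript, at 1617 ± 44.6 CPM in shTRIP6 and 1782 ± 35.3 CPM in shControl.

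NQO1, which reduces quinones by 2 electrons and is among the best known NRF2 targets, was the member with the largest change. It lies on chromosome 16 from 69706996 to 69726951 on the minus strand (GRCh38, protein-coding, ENSG00000181019.12). It had 1.82, 1.66 and 1.22 CPM in shTRIP6, from 58, 52 and 38 counts, against 173, 191 and 189 CPM in shControl, from 5162, 5953 and 5839 counts. Every shTRIP6 library was low and every shControl library high, with a log2 fold change of -6.87 ± 0.10 (edgeR adjusted p = 1.42e-20). None of its 3 nearest tested genes on either side fell on this scale, although 3 of the 6 were called lower. NFAT5 and NOB1, on the 2 sides of NQO1, had log2 fold changes of -0.53 ± 0.07 (called lower) and -0.06 ± 0.06 (not called). CYB5B, WWP2, TERF2 and PDXDC2P-NPIPB14P, the next genes outward, had log2 fold changes between -0.59 and -0.06. AC092115.2, an antisense gene with no row in the tables, holds 14.4% of the 50-base stretches of NQO1 transcripts.

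The other quinone, carbonyl, epoxide and heme enzymes differed by degrees, with 3 members called higher, 2 lower besides NQO1, and 2 not called. With NQO1 counted, 75% of this group was called, against 60.1% of all tested genes. EPHX1, the microsomal epoxide hydrolase, had 12.1, 13.0 and 11.3 CPM in shTRIP6 cells against 28.6, 26.5 and 25.8 CPM in shControl cells. The groups did not overlap, and EPHX1 fell by 1.15 ± 0.09 on the log2 scale (edgeR adjusted p = 3.30e-09). HMOX1, the inducible heme oxygenase, was lower by far less, at 66.6, 62.7 and 64.2 CPM in shTRIP6 cells against 73.2, 73.8 and 73.4 CPM in shControl cells (log2 fold change -0.19 ± 0.05, edgeR adjusted p = 0.00628). BLVRB, biliverdin reductase B, which acts on heme breakdown products, rose by 0.28 ± 0.08 (edgeR adjusted p = 0.00355), although its lowest shTRIP6 library, at 85.9 CPM, was close to its highest shControl library, at 85.8 CPM. The paralogous carbonyl reductase genes CBR1 and CBR3 had log2 fold changes of 0.09 ± 0.06 and 0.35 ± 0.09, and CBR3 passed the test (edgeR adjusted p = 0.00274) while CBR1 did not (edgeR adjusted p = 0.207). CBR3 shares 35.7% of its 50-base stretches with the antisense gene CBR3-AS1.

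Calls at the edge of the threshold turned on single libraries. OSGIN1, a growth inhibitor induced by oxidative stress, was called higher at 28.2 ± 2.47 CPM in shTRIP6 cells against 24.4 ± 1.64 CPM in shControl cells (log2 fold change 0.21 ± 0.09, edgeR adjusted p = 0.0416). That call was lost without shTRIP6 replicate 3 (edgeR adjusted p = 0.194), shControl replicate 1 (0.0972) or shControl replicate 2 (0.0826); its 14 alternatives gave 0.0135 to 0.194. PIR, the iron-binding nuclear protein pirin, had 22.3 ± 1.25 CPM in shTRIP6 and 22.7 ± 1.35 CPM in shControl, with a 95% interval of the log2 fold change from -0.20 to 0.15.

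In glutathione synthesis and reduction, SLC7A11 and GCLC were called lower, GSR higher, and GCLM was not called. That is 75% called, against 60.1% of all tested genes. SLC7A11, the cystine transporter subunit that brings in the sulfur amino acid for glutathione, had 76.2, 70.2 and 76.7 CPM in shTRIP6 cells, against 216, 220 and 214 CPM in shControl cells. The 2 groups stood far apart, and SLC7A11 fell by 1.54 ± 0.05 on the log2 scale (edgeR adjusted p = 4.96e-15). GCLC, the catalytic subunit of glutamate-cysteine ligase, had 32.4, 32.5 and 35.6 CPM in shTRIP6 cells against 59.9, 63.1 and 59.5 CPM in shControl cells. It fell by 0.86 ± 0.07 (log2 fold change, edgeR adjusted p = 1.63e-09), with no overlap of the groups. GCLM, the modifier subunit of the same enzyme, had 84.3, 83.4 and 91.6 CPM in shTRIP6 cells, against 88.2, 80.2 and 83.0 CPM in shControl cells. Its groups overlapped, with a 95% interval of the log2 fold change from -0.08 to 0.17 (edgeR adjusted p = 0.520).

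The ratio of the 2 subunit transcripts puts these values together and is no separate evidence. GCLM CPM over GCLC CPM was 2.58 ± 0.0214 in shTRIP6 and 1.38 ± 0.102 in shControl (SD, n = 3 each), and the groups did not overlap. An exact two-sided permutation test gave p = 0.1, the smallest p that 3 libraries against 3 allow, and 0.1 after adjustment over the 4 such tests made, so these tests could not pass the threshold. GSR, which reduces oxidised glutathione with NADPH, went the other way from SLC7A11 and GCLC. It stood at 122 ± 1.39 CPM in shTRIP6 and 107 ± 2.66 CPM in shControl (log2 fold change 0.20 ± 0.05, edgeR adjusted p = 0.00161). SLC7A11-AS1, an antisense gene whose exons overlap SLC7A11, was also called lower, with a log2 fold change of -2.12 ± 0.17 (edgeR adjusted p = 5.04e-09), and without a stated strand setting the reads of the pair cannot be told apart.

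The glutathione peroxidases and transferases were split, with GSTP1, GSTM2 and GSTM4 called higher, GPX4, GSTM3, MGST1 and MGST2 called lower, and GSTA4 not called. Of those tested, 87.5% were called, against 60.1% of all tested genes. GSTP1, the pi-class transferase that is the main cytosolic form of many carcinoma cells, had 249, 244 and 226 CPM in shTRIP6 cells, against 102, 108 and 111 CPM in shControl cells. Every shTRIP6 library was more than 2-fold above every shControl library, and GSTP1 rose by 1.16 ± 0.05 (log2 fold change, edgeR adjusted p = 5.74e-13). MGST1, a membrane-bound transferase and peroxidase of the endoplasmic reticulum and mitochondria, had 70.3, 67.3 and 70.2 CPM in shTRIP6 cells against 227, 205 and 222 CPM in shControl cells. It fell by 1.65 ± 0.05 on the log2 scale (edgeR adjusted p = 3.33e-15). MGST2, its microsomal relative, fell by 1.92 ± 0.15 (log2 fold change, edgeR adjusted p = 1.54e-09), to 2.82, 3.20 and 2.99 CPM in shTRIP6 cells against 12.0, 11.5 and 10.7 CPM in shControl cells. Both MGST genes were low in every shTRIP6 library. GPX4, the selenium peroxidase that repairs lipid peroxides in membranes, had 128, 119 and 119 CPM in shTRIP6 cells against 214, 210 and 214 CPM in shControl cells, and fell by 0.80 ± 0.05 (log2 fold change, edgeR adjusted p = 4.29e-11).

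The mu-class transferases, a tight cluster of paralogs on chromosome 1, did not move as one. GSTM2 had 32.1, 31.1 and 28.3 CPM in shTRIP6 cells against 13.8, 13.5 and 18.6 CPM in shControl cells, a rise of 1.00 ± 0.11 on the log2 scale (edgeR adjusted p = 2.32e-07). GSTM4 rose by 0.35 ± 0.12 (edgeR adjusted p = 0.0145), and GSTM3 fell by 0.65 ± 0.10 on the log2 scale (edgeR adjusted p = 1.97e-05), to 10.9 ± 0.582 CPM in shTRIP6 cells against 17.1 ± 0.569 CPM in shControl cells. The call of GSTM4 was lost without shTRIP6 replicate 1 (edgeR adjusted p = 0.0973); its alternatives gave 0.00627 to 0.0973. GSTM1 is not a member, but holds more of the 50-base stretches of GSTM2 (12.1%) than any other gene. The annotated exons of the pair overlap on the same strand. GSTM1 stood at 62.3 ± 1.25 CPM in shTRIP6 and 25.0 ± 3.08 CPM in shControl (log2 fold change 1.32 ± 0.08). Reads can be shared here: 16.1% of the 50-base stretches of GSTM2 transcripts, 16.9% of those of GSTM4 and 4.80% of those of GSTM3 occur in transcripts of other genes, so the values of GSTM2 and GSTM4 are uncertain. GSTA4, an alpha-class transferase for lipid aldehydes, was scarce, with 1.41, 1.06 and 1.19 CPM in shTRIP6 and 1.14, 0.835 and 1.07 CPM in shControl, and its wide 95% interval ran from -0.44 to 0.97 on the log2 scale. GPX2, the gastrointestinal glutathione peroxidase, had 12, 0 and 4 counts in shTRIP6 and 4, 10 and 6 in shControl, too few for a difference to be detectable at this depth.

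**Figure D3:**
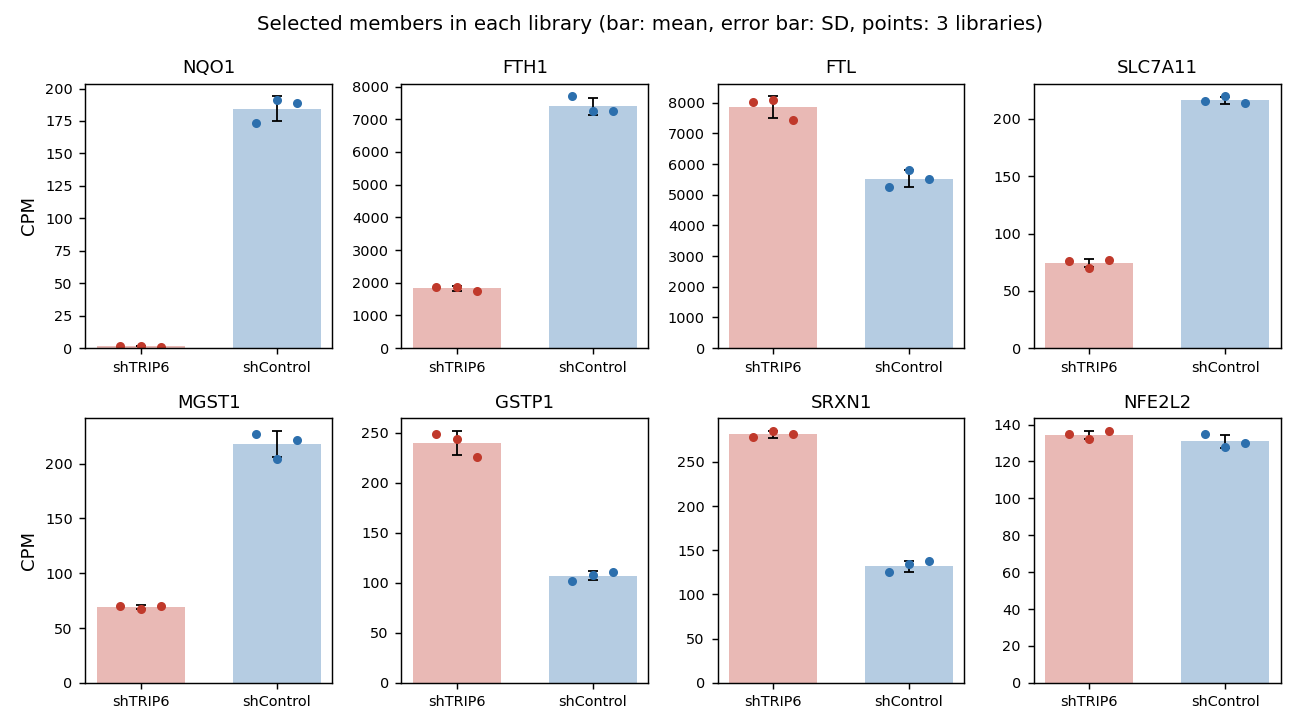
CPM of 8 members in each library on linear axes from 0, with shTRIP6 at the left and shControl at the right of each panel, bars at the mean, error bars of 1 SD and points for the 3 libraries. NQO1, FTH1, SLC7A11 and MGST1 are lower in shTRIP6, FTL, GSTP1 and SRXN1 are higher, and NFE2L2 overlaps.

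Among the thioredoxin genes SRXN1 and TXNRD1 were called higher and TXN lower. SRXN1, sulfiredoxin, which restores over-oxidised peroxiredoxins and is a sensitive NRF2 target, had 278, 285 and 281 CPM in shTRIP6 cells, against 125, 134 and 137 CPM in shControl cells. Every shTRIP6 library was more than 2-fold above every shControl library, a rise of 1.09 ± 0.05 on the log2 scale (edgeR adjusted p = 4.24e-13). TXNRD1, the cytosolic thioredoxin reductase, had 1517, 1576 and 1564 CPM in shTRIP6 cells against 1154, 1279 and 1232 CPM in shControl cells, and rose by 0.35 ± 0.04 (log2 fold change, edgeR adjusted p = 8.95e-07). TXN, thioredoxin itself, fell by 0.24 ± 0.04 on the log2 scale (edgeR adjusted p = 6.18e-05), with 247 ± 0.961 CPM in shTRIP6 and 292 ± 3.53 CPM in shControl. SRXN1 shares 84.7% of its 50-base stretches with AL121758.1, a gene annotated over it on the same strand that has no row in the count tables.

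Of the peroxide-removing enzymes, PRDX6 and CAT were called slightly lower and PRDX1 was not called. Together with the thioredoxin genes, 83.3% were called, against 60.1% of all tested genes. PRDX1, the abundant 2-cysteine peroxiredoxin, had 450, 454 and 453 CPM in shTRIP6 cells, against 401, 495 and 475 CPM in shControl cells. The groups overlapped and the 95% interval of the log2 fold change ran from -0.14 to 0.11. Without shControl replicate 1, PRDX1 passed the test as lower (log2 fold change -0.10, edgeR adjusted p = 0.0160), and all its alternatives together gave 0.0160 to 0.985. PRDX6, a 1-cysteine peroxiredoxin, had 234 ± 3.09 CPM in shTRIP6 and 275 ± 4.26 CPM in shControl, and fell by 0.23 ± 0.04 on the log2 scale (edgeR adjusted p = 0.000115). CAT, catalase, fell by 0.18 ± 0.07 (log2 fold change, edgeR adjusted p = 0.0219), a call lost without shTRIP6 replicate 1 (0.0592), shTRIP6 replicate 2 (0.113), shControl replicate 2 (0.0799) or shControl replicate 3 (0.0830), and under upper-quartile scaling (0.0807); all alternatives gave 0.00135 to 0.113.

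The NADPH-producing and pentose phosphate members divided into 2 called lower (PGD, TKT), 1 called higher (TALDO1) and 1 not called (ME1). That is 75% called, against 60.1% of all tested genes. PGD, 6-phosphogluconate dehydrogenase, which makes NADPH in the oxidative branch, had 121, 116 and 110 CPM in shTRIP6 cells, against 190, 174 and 179 CPM in shControl cells. The groups were well apart, and PGD fell by 0.64 ± 0.05 on the log2 scale (edgeR adjusted p = 3.58e-09). TALDO1, transaldolase of the non-oxidative branch, rose by 0.29 ± 0.05 (log2 fold change, edgeR adjusted p = 6.36e-05), with 136, 142 and 134 CPM in shTRIP6 and 109, 113 and 116 CPM in shControl. TKT, transketolase, works beside transaldolase and stood at 570 ± 25.9 CPM in shTRIP6 and 619 ± 10.2 CPM in shControl (log2 fold change -0.12 ± 0.04, edgeR adjusted p = 0.0226). The call of TKT was lost without shTRIP6 replicate 2 (0.0542), shTRIP6 replicate 3 (0.192) or shControl replicate 2 (0.0516) and under upper-quartile scaling (0.166); all alternatives gave 0.0108 to 0.192. ME1, cytosolic malic enzyme, had a log2 fold change of -0.16 ± 0.08 and was not called (95% interval -0.32 to 0.01, edgeR adjusted p = 0.0907).

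The ferritin subunits moved in opposite directions. Ferritin stores iron in a shell of heavy and light chains, of which the heavy chain, from FTH1, oxidises iron and the light chain, from FTL, helps to mineralise it. FTH1, on chromosome 11 from 61959718 to 61967660 on the minus strand (GRCh38), had 1877, 1857 and 1742 CPM in shTRIP6 cells, against 7706, 7257 and 7255 CPM in shControl cells. FTL (chr19:48965301-48966878, plus strand, GRCh38) had 8028, 8087 and 7434 CPM in shTRIP6 cells, against 5265, 5796 and 5511 CPM in shControl cells. Neither gene overlapped between the groups. FTH1 fell by 2.02 ± 0.04 on the log2 scale (edgeR adjusted p = 1.76e-18) and FTL rose by 0.51 ± 0.04 (edgeR adjusted p = 3.42e-09).

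Divided by exon length, FTL was above FTH1 in both groups, by 7.86 to 8.02 times in shTRIP6 and 1.26 to 1.47 times in shControl. The lengths were unions of all annotated exons, 878 bases for FTL and 1617 bases for FTH1. The order in shControl depends on them, since without length correction FTL was below FTH1 in every shControl library (ratios of 0.683 to 0.799). FTL stood at 8940 CPM per kb and FTH1 at 1129 CPM per kb in shTRIP6, and at 6292 and 4580 CPM per kb in shControl. The ratio of FTL CPM to FTH1 CPM, without length correction, was 4.30 ± 0.0484 in shTRIP6 and 0.747 ± 0.0588 in shControl, and the groups did not overlap (exact two-sided permutation p = 0.1, the smallest possible). The summed CPM of both chains was 9675 ± 433 in shTRIP6 and 12930 ± 148 in shControl (SD, n = 3 each), a ratio of 0.748 (exact permutation p = 0.1). The summed CPM of the other 35 members was 6802 ± 82.9 in shTRIP6 and 7069 ± 166 in shControl, a ratio of 0.962 (exact permutation p = 0.1). Ferritin genes have many processed pseudogenes, and 57.4% of the 50-base stretches of FTH1 transcripts and 18.3% of those of FTL transcripts occur in other genes. For FTH1 most of these, 49.3%, lie in BEST1, which overlaps it on the opposite strand and stood at only 1.07 CPM in shTRIP6 and 3.57 CPM in shControl (called lower).

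The surroundings of the 8 members that differed by 2-fold or more were compared through the 3 nearest tested genes on each side. Of these 48 neighbours, 1 was nearly absent in shTRIP6, PDE3A near MGST1, at 0.426 CPM in shTRIP6 cells against 35.5 CPM in shControl cells. The nearest neighbours of GSTP1 on either side, CDK2AP2 and C11orf72, were not called, with log2 fold changes of -0.14 and -0.08. Further out, NDUFV1 (0.28) and NUDT8 (0.75) were called higher, PITPNM1 (-0.32) was called lower and MIR6752 (-0.16) was not called. Beside SRXN1, CSNK2A1 (0.14), TBC1D20 (0.17), RBCK1 (0.36) and FAM110A (0.89) were called higher, while PSMF1 and RAD21L1 were not called. Over all tested genes, 29.0% were called higher and 31.2% lower. MGST2 overlaps MAML3, which lies on the opposite strand and fell by 2.26 ± 0.20 on the log2 scale, while EPHX1 lies 2 tested genes from ENAH, which fell by 2.40 ± 0.06.

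**Figure D4:**
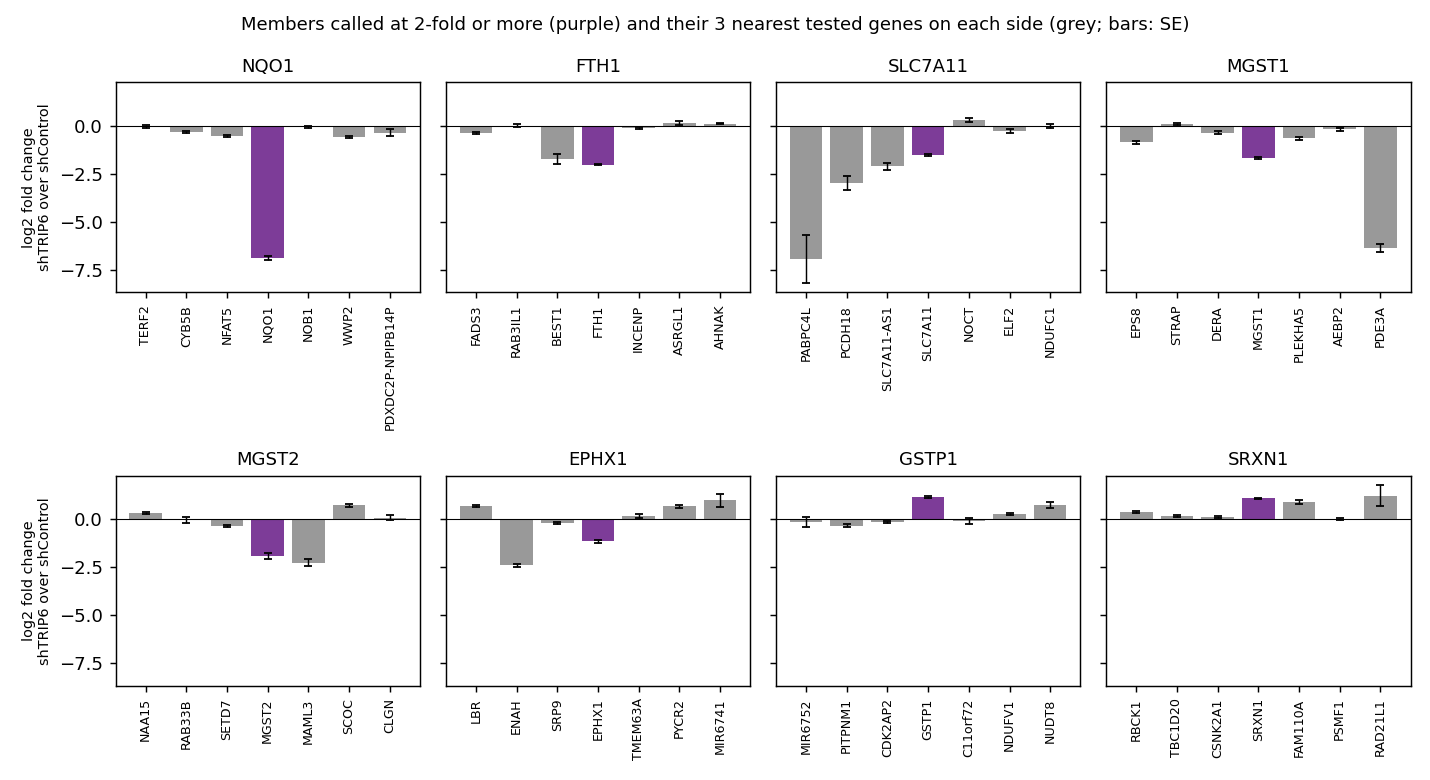
Log2 fold change of shTRIP6 over shControl for the 8 members called at 2-fold or more (purple) and their 3 nearest tested genes on either side in chromosome order (grey), with bars of 1 SE. NQO1 stands at -6.87 among neighbours between -0.59 and -0.06, whereas SLC7A11 has lower neighbours on the side of SLC7A11-AS1. The value of PABPC4L, which had 0 counts in every shTRIP6 library, depends on the prior count of the fit.

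Other genes of the same pathways were read from 7 lists of genes that are not members. Of their 152 genes in the tables, 134 were tested, and 43 were called higher, 60 lower and 31 were not called, with a median log2 fold change of -0.10. Over all tested genes 29.0% were called higher and 31.2% lower, with a median of -0.00. The lists were chosen with earlier results known, and no list was tested against other genes or against another list. Near absence was met by 9 of 131 genes at 1 CPM or more in shControl, or 6.87%, and by 1 of 36 members, and the difference of these shares was not tested. Besides PTGES, PRDX2, AKR1C1 and AKR1C2, described below, these were SESN3, ALDH1L2, AKR1B10, ALDH3A1 and ABCC3, named after their values were seen. ALDH3A1, an aldehyde dehydrogenase, stood at 0.487 ± 0.106 CPM in shTRIP6 cells against 15.3 ± 0.866 CPM in shControl cells, and ABCC3, a pump for glutathione and glucuronide conjugates, at 3.71 ± 0.439 CPM in shTRIP6 cells against 89.1 ± 2.52 CPM in shControl cells.

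Quinone, aldehyde and conjugate handling genes, the list nearest in role to NQO1, held 15 genes called lower, 3 higher and 4 not called of 22 tested, with a median log2 fold change of -0.97. Either call was made for 81.8% of the list, against 60.1% of all tested genes. Its largest falls were those of AKR1C1, an aldo-keto reductase, at 1.41, 1.06 and 0.965 CPM in shTRIP6 cells against 125, 141 and 140 CPM in shControl cells, and of its near-identical paralog AKR1C2, at 0.617 ± 0.187 CPM in shTRIP6 cells against 59.5 ± 4.55 CPM in shControl cells. The values of this pair are uncertain, since their reads can be split between them. CYB5R1 and ABCC4 rose by 0.58 ± 0.07 and 0.37 ± 0.06. Of the glutathione supply and turnover genes, 11 were called higher, 2 lower and 6 were not called of 19 tested, with a median log2 fold change of 0.23. Either call was made for 68.4% of them, near the share over all tested genes. By direction the list leaned to higher calls, where 29.0% of all tested genes were called higher and 31.2% lower. GGT7 and CBS, the first enzyme of transsulfuration, rose by 1.55 ± 0.18 and 0.93 ± 0.08, while the amino acid transporter genes SLC7A5 and SLC3A2 had log2 fold changes of -0.80 ± 0.04 and -0.22 ± 0.07. The groups overlapped for SLC3A2, where shControl replicate 1, at 254 CPM, was below the lowest shTRIP6 library, at 258 CPM. SLC3A2 encodes the heavy chain that pairs with SLC7A11 and SLC7A5.

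Of 26 tested peroxidases, redoxins and dismutases, 14 were called higher, 8 lower and 4 were not called. Either call was made for 84.6% of them, against 60.1% of all tested genes. PRDX2, a peroxiredoxin close to PRDX1 in sequence, had 0.785, 1.31 and 0.997 CPM in shTRIP6 cells, against 97.5, 98.2 and 95.9 CPM in shControl cells, so it was nearly absent in every shTRIP6 library (log2 fold change -6.56 ± 0.11, edgeR adjusted p = 1.46e-19). GPX1 fell by 0.59 ± 0.06 on the log2 scale, and TXNRD2, the mitochondrial thioredoxin reductase, and GLRX, glutaredoxin, rose by 0.89 ± 0.08 and 0.59 ± 0.06. Of 12 tested glutathione S-transferases and their relatives outside the member list, 3 were called higher, 5 lower and 4 were not called. The share called, 66.7%, was near that over all tested genes. PTGES, a prostaglandin E synthase of the MGST family, stood at 4.45 ± 0.614 CPM in shTRIP6 cells against 357 ± 16.9 CPM in shControl cells (log2 fold change -6.33 ± 0.08). GSTO1 rose by 0.72 ± 0.06, and GSTK1 fell by 0.16 ± 0.06 with overlapping groups (edgeR adjusted p = 0.0400).

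In the list of sensor and partner genes, 10 of 19 tested were called lower, 3 higher and 6 were not called. The share called in either direction was 68.4%, near the 60.1% over all tested genes. By direction the list leaned to lower calls, where 29.0% of all tested genes were called higher and 31.2% lower. The acetyltransferase co-activator genes EP300 and CREBBP fell by 1.25 ± 0.07 and 0.95 ± 0.07 on the log2 scale, and MAFF, a small MAF, and NFE2L3, a relative of NRF2, rose by 0.70 ± 0.07 and 0.59 ± 0.05. Pentose phosphate and NADPH enzymes had 12 called lower, 6 higher and 2 not called of 20 tested (90% called). IDH2, a mitochondrial source of NADPH, and PRPS1, which draws ribose 5-phosphate into nucleotide synthesis, rose by 1.19 ± 0.10 and 0.75 ± 0.05, and NADK2 and H6PD fell by 0.97 ± 0.10 and 0.82 ± 0.16. Heme and iron handling genes had 8 called lower, 3 higher and 5 not called of 16 tested. The share called in either direction was 68.8%, near that over all tested genes, but this list too leaned to lower calls. IREB2, the iron regulatory protein that represses ferritin translation, fell by 1.04 ± 0.06 and the porphyrin transporter gene ABCB6 by 0.91 ± 0.16, while HMOX2 and BLVRA rose by 0.37 ± 0.05 and 0.34 ± 0.08.

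**Figure D5:**
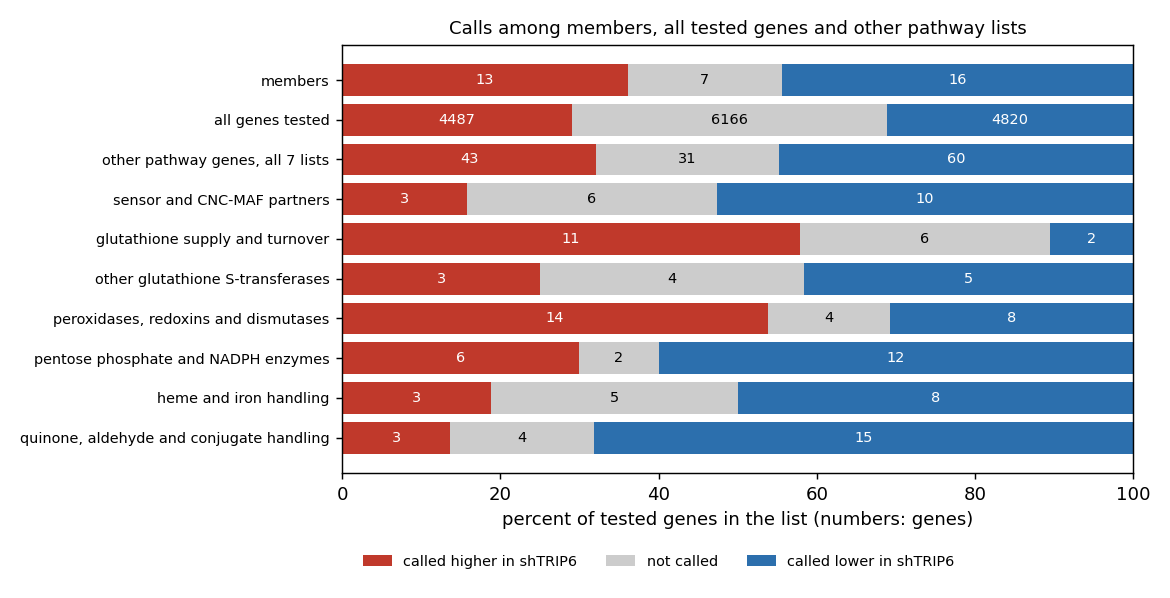
Share of tested genes called higher in shTRIP6, not called, and called lower in shTRIP6, in percent, for the members, all tested genes, and the other pathway genes together and by list, with the number of genes printed in each bar. The members divide into 13 higher, 7 not called and 16 lower, and the quinone, aldehyde and conjugate handling list has 15 of 22 genes called lower.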

How the data were processed

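The authors deposited 1 table per library of raw, whole-number counts for each gene symbol, without normalization. Build hg38 and the tools TopHat2, edgeR and limma are named, with neither role nor version, in the submitters' processing notes. No source used here gives the counting tool, annotation or strand setting. Groups and replicate numbers came from the labels. Every pair of replicates differed beyond sampling noise (chi-square per degree of freedom 3.05 to 11.7, over genes with 20 counts or more), so none was taken for a library deposited more than once; this does not show that they are separate cultures.

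From the authors' counts, the comparison was fitted with edgeR 4.0.16 under R 4.3.3 (filterByExpr, TMM, quasi-likelihood test, no covariate) over all 15473 tested genes, with Benjamini-Hochberg adjusted p under 0.05 as the call. The SE was the log2 fold change over the square root of F, and intervals are 95% t intervals from it. CPM used library sizes scaled by TMM. In simulated counts, 15224 genes were fitted and 50 were changed per size. The test found 42% of the genes with a 1.2-fold change, 74% of those with 1.5-fold, 84% of those with 2-fold and 98% of those with 4-fold. Of its 156 calls, 7 were false. Far fewer genes were changed there than the 60.1% of tested genes called here. The changed genes were drawn from all tested genes. These rates therefore need not hold for this comparison or for the members, which were more abundant.

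All 37 members are described, and for each further list up to 2 called rises and 2 called falls with a mean of 5 CPM or more are named. A few others were added after their values were seen. The members and lists were chosen with earlier results of these data known. Gene positions, exon overlaps, exon lengths and shared 50-base stretches came from GENCODE 29 (GRCh38), and promoters from RefSeq (GRCh38.p14). Alternatives were RLE, upper-quartile and no scaling, 2 other filters, DESeq2 1.42.0, limma-voom (limma 3.58.1), the replicate number as a block, and leaving out each library.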

Additional observations from a re-analysis of the deposited data

How the results depend on the processing

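Of the 36 tested members, 29 kept their direction and their side of the threshold in all 14 alternatives run for each, among them 25 of the 29 called. The members called higher numbered 12 to 14 and those called lower 14 to 17, and NQO1 was the 1 nearly absent member in all 9 alternatives, with the line at 2% or 10% included. The other 7 were OSGIN1, CAT, TKT and GSTM4, which lost their calls as given above, CBR1, which gained one under upper-quartile scaling (log2 fold change 0.13, adjusted p = 0.0486), and PIR and PRDX1, near 0 and not called, whose direction turned. The log2 fold change was 0.022 for PIR and 0.033 for PRDX1 under upper-quartile scaling, and over the leave-one-out fits it ran from -0.066 to 0.019 for PIR and from -0.10 to 0.046 for PRDX1. OSGIN1 also lost its call with no scaling beyond library size (adjusted p = 0.0565) and in DESeq2 (0.0535). The cause of these changes was not tested. Upper-quartile scaling moved the median of all genes to 0.04 on the log2 scale, against -0.00 with TMM. With the replicate number as a block, 13 members were called higher and 16 lower, as without it, and over all genes 4377 higher and 4702 lower. Same-numbered libraries did not deviate together (correlations of -0.00601, -0.00923 and -0.0522), and no library correlated best with its own number, so the block pairs nothing that the data show. Depth limits GPX2 and GSTA4, at about 1 CPM or less.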
